A study of Mus musculus with 8 samples.

Results

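The luminal hormone receptor genes examined here are 9 genes of the 27179 in the table of counts, taken by name and mapped by Entrez identifier, namely Esr1, Pgr, Nr3c1, Foxa1, Gata3, Cited1, Spdef, Epcam and Greb1. All 9 were in the table, 8 had enough counts to be tested and Greb1 did not. They were measured by RNA sequencing in 8 whole primary tumours, 4 grown from 4T1.13-VC and 4 grown from 4T1.13-miR-21-KD cells. 4T1.13 cells are a mouse mammary carcinoma line with metastatic capacity, and both lines carried the miArrest lentiviral vector with an H1 promoter, an mCherry reporter and resistance to hygromycin. In miR-21-KD cells the vector expressed an RNA made to bind and sequester miR-21, while in VC cells it held a scrambled sequence. For each line 6 clones were pooled. The hosts of both groups were female BALB/c mice, given in the methods as 7 to 8 weeks old, which keep their own immune system, mammary gland and fat. By the labels each mouse received 100000 cells in the mammary fat pad. A larger inoculum is stated elsewhere for growth experiments with these lines. The tumours were taken at day 14 by the labels and at day 12 by the text of the study.

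In the mammary gland, oestrogen and progesterone act on luminal epithelial cells through nuclear receptors that bind DNA once they hold their hormone. Oestrogen receptor alpha acts at sites opened by FOXA1 and GATA3 and switches on genes such as the progesterone receptor and Greb1, while glucocorticoids act through a related receptor that is present in most cell types. 4T1 tumours are commonly used as a model of hormone receptor negative breast cancer. Adipocytes and fibroblasts also use some of these receptors, and GATA3 is also a regulator of type 2 lymphocytes, so a count from a whole tumour can come from several cell types.

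The sequence at the centre of the design is that of miR-21, which pairs with target RNAs through its seed. The mature mouse miR-21a-5p (RefSeq, GRCm38.p6, chr11:86584120-86584141, minus strand) has 22 bases and is shown because the sequestering RNA is directed at it, with the seed, bases 2 to 8, in capitals.
mmu-miR-21a-5p: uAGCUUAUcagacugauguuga
Matches were sought in the longest annotated 3′ UTR (GENCODE M21, GRCm38) of each gene. They were ATAAGCT, which matches the whole seed, or TAAGCTA, which lacks the match to base 8 and ends in an added A. Such matches were found in 2 of the 9 genes, Pgr and Nr3c1, or 22.2%, against 2320 of 20987 genes with a 3′ UTR, or 11.1%. The match in Nr3c1 was TAAGCTA. The median UTR was 1398 bases in the 9 genes and 954 in all genes, and those of Pgr and Nr3c1 had 3473 and 3937 bases, so the shares are not of equal lengths. Pgr held 1 match, shown with its flanks and with the matched bases in capitals because Pgr had the greatest fitted rise of the 9 genes (chr9:8967425-8967452, plus strand, position 2297 of the UTR).
Pgr: aatcatatgaATAAGCTttaatagaaac
A match of letters does not show that miR-21 binds there. The table lists the precursor gene Mir21a at 0 in every tumour, so the counts cannot check the loss of miR-21 function.

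Promoters of 250 bases before to 50 after the start were listed by RefSeq (GRCm38.p6) for 8 of the 9 genes, 12 promoters in all, and Nr3c1 had no entry. The promoter of Foxa1 is shown because it held both a GGTCA half-site of the oestrogen response element and, on the other strand, the forkhead motif TGTTTAC, which FOXA1 itself can bind (chr12:57546062-57546361, minus strand, motifs in capitals).
Foxa1: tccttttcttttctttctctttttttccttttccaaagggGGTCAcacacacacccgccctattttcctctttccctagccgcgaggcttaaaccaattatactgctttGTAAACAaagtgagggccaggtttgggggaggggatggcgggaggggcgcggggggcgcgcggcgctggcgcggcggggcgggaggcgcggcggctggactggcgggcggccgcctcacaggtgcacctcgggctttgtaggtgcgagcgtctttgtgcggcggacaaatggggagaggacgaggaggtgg
Both strands were searched. GGTCA was in 9 of the 12 promoters, of 7 of the genes, and in 40.5% of 32851 promoters of all genes. TGTTTAC was in that of Foxa1 alone among the 12 and in 3.65% of all promoters. TGTTCT, a half-site of the glucocorticoid and progesterone receptors, was in 1 of the 12, that of Spdef, and in 19.0% of all. AGATAA, letters that GATA factors bind, was in 0 of the 12 and in 11.2% of all.

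Between 12134849 and 13592695 reads were counted on genes per VC tumour and between 12550898 and 12783800 per miR-21-KD tumour, and 17380 to 18448 genes had a count. Levels are given in CPM, read counts relative to the library size and scaled with TMM factors. A count of 0 allows up to 3 counts, or 0.221 to 0.244 CPM depending on the tumour, a limit that covers counting error only. Fold changes and p-values come from 1 edgeR quasi-likelihood fit to all genes, with p-values adjusted by Benjamini and Hochberg over the 14382 genes tested and a threshold of 0.05. Errors of fold changes are standard errors (SE), and errors of levels are SD over 4 tumours.

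Of the 8 tested genes, 7 passed the test and all 7 were higher in miR-21-KD tumours, namely Esr1, Pgr, Nr3c1, Foxa1, Cited1, Spdef and Epcam. Of all genes tested, 39.1% passed in either direction, 19.6% with the higher level in miR-21-KD tumours and 19.5% with the lower. The median log2 fold change of the 8 genes was 2.70, against -0.01 over all genes tested, and was 1.90 over 9 genes with no filter and 1.47 over the 6 genes with at least 10 counts in every tumour. More than 2-fold rises were called for 5 of the 8, Pgr, Foxa1, Cited1, Spdef and Epcam, against 10.7% of all genes. In 5 of the 8, Esr1, Pgr, Nr3c1, Foxa1 and Cited1, every miR-21-KD tumour was above every VC tumour, against 16.4% of all genes. Gata3 did not pass, and Greb1 was near the limit of detection. In bulk tumours, fewer cells of a type and less RNA per cell cannot be told apart.

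**Figure D1:**
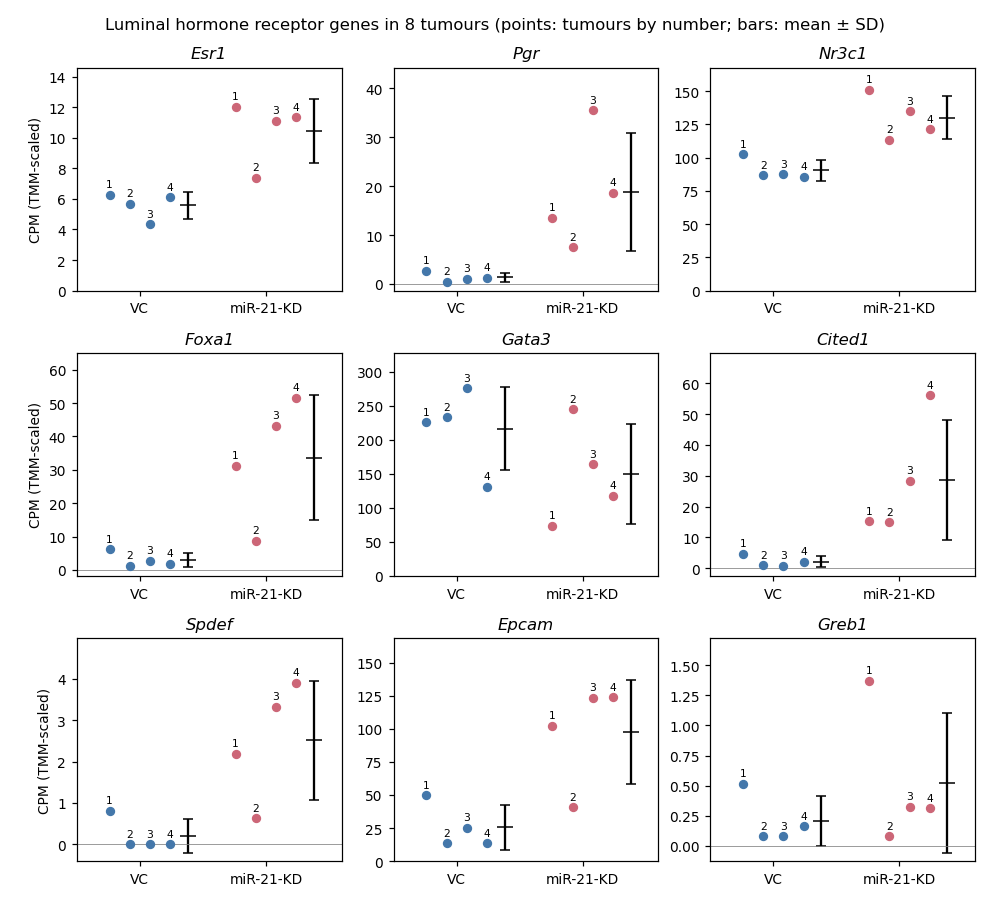
Level of each of the 9 genes (vertical axes, CPM scaled with TMM factors, each with its own range) in 4 VC and 4 miR-21-KD tumours. Points are tumours with their number and black bars are mean ± SD. The 4 miR-21-KD tumours lie above the 4 VC tumours for Esr1, Pgr, Nr3c1, Foxa1 and Cited1, the groups overlap for Gata3, Spdef, Epcam and Greb1, and miR-21-KD tumour 2 is low for most genes but highest of its group for Gata3.

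The receptors come first. Esr1 (Entrez 13982, chr10:4611989-5005633, positions here and below in GRCm38) encodes oestrogen receptor alpha. Its CPM was 6.26, 5.66, 4.33 and 6.11 in VC tumours 1 to 4 and 12.02, 7.38, 11.1 and 11.3 in miR-21-KD tumours 1 to 4. The groups did not overlap, and tumour 2 was the lowest of the miR-21-KD group, close above the highest VC tumour. The mean rose from 5.59 ± 0.877 to 10.5 ± 2.09, a log2 fold change of 0.90 (SE 0.20, 95% interval 0.44 to 1.37, edgeR adjusted p = 0.0126).

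Pgr (Entrez 18667, chr9:8898900-8968611) encodes the progesterone receptor, itself a classical target of oestrogen receptor alpha. Its CPM was 2.65, 0.399, 1.10 and 1.22 in VC tumours 1 to 4 and 13.6, 7.46, 35.5 and 18.7 in miR-21-KD tumours 1 to 4. The lowest miR-21-KD tumour was above the highest VC tumour, and the miR-21-KD tumours spread widely, with tumour 3 highest. The mean rose from 1.34 ± 0.945 to 18.8 ± 12.04, a log2 fold change of 3.79 (SE 0.62, 95% interval 2.37 to 5.20, edgeR adjusted p = 0.00632). This was the greatest fitted change among the 8 genes, ahead of Cited1 by less than the SE of either.

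Nr3c1 (Entrez 14815, chr18:39410545-39519421) encodes the glucocorticoid receptor. CPM values were 102, 86.7, 87.5 and 85.6 in VC tumours 1 to 4 and 151, 113, 135 and 121 in miR-21-KD tumours 1 to 4. VC tumour 1 stood above the other VC tumours but below every miR-21-KD tumour. From a mean of 90.6 ± 7.97 to one of 130.2 ± 16.4, the log2 fold change was 0.52 (SE 0.11, 95% interval 0.28 to 0.77, edgeR adjusted p = 0.0100), the smallest rise among the 7 genes that passed.

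The regulators that act with the receptors differed among themselves. Foxa1 (Entrez 15375, chr12:57540628-57548029) encodes the pioneer factor that opens chromatin for oestrogen receptor alpha. Its CPM was 6.19, 1.20, 2.76 and 1.87 in VC tumours 1 to 4 and 31.2, 8.72, 43.2 and 51.6 in miR-21-KD tumours 1 to 4. The groups did not overlap, although miR-21-KD tumour 2 was closer to VC tumour 1 than to the other tumours of its own group. The mean rose from 3.003 ± 2.22 to 33.7 ± 18.6, with a log2 fold change of 3.47 (SE 0.64, 95% interval 2.01 to 4.93, edgeR adjusted p = 0.00760).

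Cited1 (Entrez 12705, chrX:102247378-102252181) encodes a transcriptional coactivator that binds oestrogen receptor alpha. CPM values of 4.71, 0.877, 0.787 and 1.95 in VC tumours 1 to 4 stood against 15.3, 14.8, 28.4 and 56.1 in miR-21-KD tumours 1 to 4. All miR-21-KD tumours were higher, and tumour 4 was the highest. The mean rose from 2.08 ± 1.83 to 28.6 ± 19.4, with a log2 fold change of 3.76 (SE 0.67, 95% interval 2.24 to 5.29, edgeR adjusted p = 0.00711).

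Spdef (Entrez 30051, chr17:27714446-27731003) encodes an ETS factor of luminal and secretory epithelium. It had 11, 0, 0 and 0 counts in VC tumours 1 to 4 and 27, 8, 41 and 50 counts in miR-21-KD tumours 1 to 4, or 0.810 CPM in VC tumour 1 and 2.18, 0.628, 3.32 and 3.91 CPM in the miR-21-KD tumours. The groups overlapped, since miR-21-KD tumour 2 was below VC tumour 1, the only VC tumour with a count. The log2 fold change was 3.51 (SE 1.04, 95% interval 1.15 to 5.86, edgeR adjusted p = 0.0288). The call was lost when VC tumour 2 or 3 or miR-21-KD tumour 1, 3 or 4 was left out, with edgeR adjusted p of 0.0695, 0.0745, 0.0528, 0.0673 and 0.0748 in that order. Without VC tumour 1 the remaining VC tumours were all at 0 and the fitted value was no longer a measure of size.

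Gata3 (Entrez 14462, chr2:9857078-9887953) encodes a factor that maintains luminal cells and also drives type 2 lymphocytes. CPM values were 226, 233, 276 and 131 in VC tumours 1 to 4 and 73.5, 245, 164 and 118 in miR-21-KD tumours 1 to 4. The groups overlapped, and miR-21-KD tumour 2, low for the genes that rose, was the highest of its group here. The VC mean was 216 ± 60.9, the miR-21-KD mean was 150.1 ± 73.3, and the log2 fold change of -0.53 (SE 0.36, 95% interval -1.34 to 0.29) did not pass (edgeR adjusted p = 0.260). It passed in none of the alternatives tried, with -0.30 without miR-21-KD tumour 1 and -0.88 without miR-21-KD tumour 2 (edgeR adjusted p = 0.0552), and its interval leaves room for a fall of more than 2-fold as well as for a small rise. Gata3 shares 155 exonic bases with an antisense gene, Gm13256, and 77 with 9230102O04Rik on the same strand, and the strand setting of the counting is not given in the sources used here.

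Epcam (Entrez 17075, chr17:87635979-87651127) encodes an adhesion molecule of epithelial cells and serves as a general epithelial marker. CPM values were 49.8, 13.5, 25.3 and 13.5 in VC tumours 1 to 4 and 102, 40.6, 123 and 124 in miR-21-KD tumours 1 to 4. VC tumour 1 was above miR-21-KD tumour 2, and the other tumours separated by group. The mean rose from 25.5 ± 17.1 to 97.5 ± 39.2, with a log2 fold change of 1.93 (SE 0.50, 95% interval 0.80 to 3.06, edgeR adjusted p = 0.0182), and without VC tumour 3 the adjusted p was 0.0526.

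Greb1 (Entrez 268527, chr12:16670615-16801394), a growth regulator that is among the most direct targets of oestrogen receptor alpha, had 7, 1, 1 and 2 counts in VC tumours 1 to 4 and 17, 1, 4 and 4 counts in miR-21-KD tumours 1 to 4. The highest tumour was in the miR-21-KD group and the groups overlapped. Its counts were too low for the filter. Without any filter its log2 fold change was 1.21 (SE 0.86, edgeR adjusted p = 0.327), so a difference was not detectable at this depth. It shares 736 exonic bases with the antisense gene Gm48140.

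**Figure D2:**
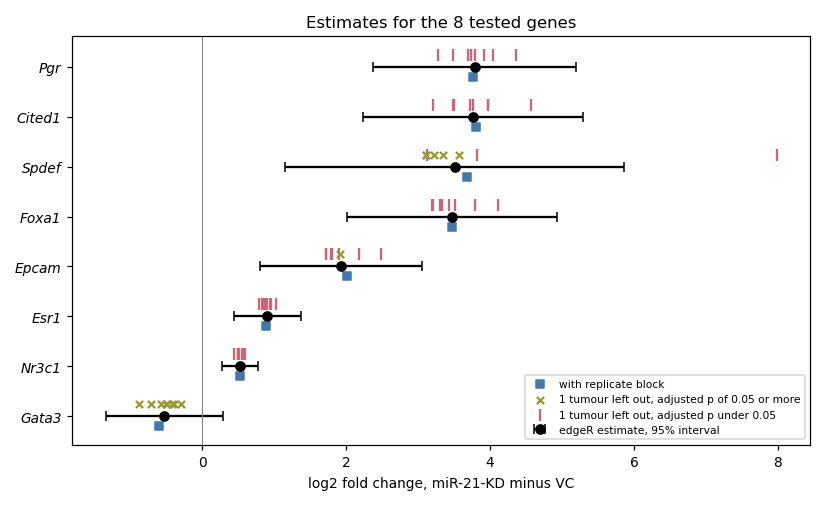
Log2 fold change, miR-21-KD minus VC (horizontal axis), of the 8 tested genes. Black points with bars are edgeR estimates with 95% intervals, blue squares are estimates with a block for the replicate number, and marks above are estimates with 1 tumour left out, as crosses where the adjusted p was 0.05 or more. Crosses appear for Spdef, for Gata3 at every tumour and for Epcam at 1 tumour, and the interval of Gata3 spans 0.

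The same tumours were high or low across genes. VC tumour 1 was the highest VC tumour and miR-21-KD tumour 2 the lowest miR-21-KD tumour for Esr1, Pgr, Nr3c1, Foxa1, Cited1, Spdef and Epcam, a pattern described here without a test. The summed markers of adipocytes, macrophages, fibroblasts and endothelial cells had the same highest VC and lowest miR-21-KD tumour. With both of these tumours left out, a choice made after seeing the data, the same 7 genes passed, with log2 fold changes of 1.13 for Esr1, 4.65 for Pgr, 0.68 for Nr3c1, 4.46 for Foxa1, 4.81 for Cited1 and 2.77 for Epcam, while the remaining VC tumours were at 0 for Spdef. Both tumours were picked as those nearest to the other group for these 7 genes, so larger fold changes follow from the choice. Gata3 then had -0.82 and did not pass. By replicate number, the difference in log2 CPM (with a prior count of 2) was above 0 in 4 of 4 pairs for those 7 genes. For Esr1, Pgr, Nr3c1, Foxa1 and Cited1 this follows from the lack of overlap and would hold for any pairing. The difference ranged from 0.37 to 1.33 for Esr1, from 2.29 to 4.82 for Pgr and from 2.31 to 4.67 for Foxa1. Gata3 was higher in 1 of 4 pairs.

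Levels of different genes were compared per kilobase of exon. In VC tumours Gata3 stood first with 54.4 ± 15.3 CPM per kb, apart from the rest. Nr3c1 with 11.8 ± 1.04 and Epcam with 11.6 ± 7.80 followed and overlapped. Cited1 (1.19 ± 1.05), Foxa1 (0.903 ± 0.667) and Esr1 (0.409 ± 0.0642) each overlapped their neighbour, and Pgr (0.157 ± 0.111), Spdef (0.0879 ± 0.176) and Greb1 (0.0218 ± 0.0217) were lowest. In miR-21-KD tumours Epcam stood first with 44.4 ± 17.9 CPM per kb and overlapped Gata3 with 37.7 ± 18.4. Nr3c1 (16.9 ± 2.13), Cited1 (16.3 ± 11.04) and Foxa1 (10.1 ± 5.60) came next, each overlapping its neighbour. Pgr with 2.20 ± 1.41 then stood above Spdef with 1.09 ± 0.627 and Esr1 with 0.766 ± 0.153, although these overlapped too. The transcript of Esr1 was thus above that of Pgr per kilobase in the VC group, without overlap, whereas in the miR-21-KD group the order of their means was the opposite and the lowest Pgr tumour, 0.873, was just below the highest Esr1 tumour, 0.880.

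The 7 other tested genes were also set against Epcam in each tumour, as log2 CPM minus that of Epcam, a comparison added after seeing the data. Relative to Epcam, Pgr was higher in miR-21-KD tumours by 1.65 and Foxa1 by 1.38, with no overlap between groups (exact two-sided permutation p = 0.0286 each, the smallest that 4 against 4 allows, and 0.0667 adjusted over 7 comparisons). Cited1 was higher by 1.77 and Spdef by 1.17 (exact permutation p = 0.0571 each, adjusted 0.0667). On the same scale Esr1 fell by 1.14 (exact permutation p = 0.0857, also after adjustment), Nr3c1 fell by 1.501 and Gata3 fell by 2.63 (exact permutation p = 0.0571 each, adjusted 0.0667). None of the 7 passed after adjustment. These differences depend on the choice of Epcam, which itself rose from 25.5 to 97.5 CPM. The luminal keratins Krt8 and Krt18 had lower means in miR-21-KD tumours. Whether Epcam tracked the epithelial content of the tumours was not tested. By replicate number, Pgr, Foxa1, Cited1 and Spdef were higher relative to Epcam in 4 of 4 pairs and Esr1, Nr3c1 and Gata3 were lower in 4 of 4, for which the exact two-sided sign-flip permutation over 4 pairs gives p = 0.125 each, the smallest it can give. For Pgr and Foxa1, whose groups did not overlap, 4 of 4 would hold for any pairing. The value of Spdef depends on the prior count of 2, since 3 VC tumours were at 0.

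The patterns most like each gene over the 8 tumours were found by the root mean square (RMS) difference of log2 CPM centred on its mean. Among the nearest 2 were Tcn2 (RMS 0.0640) and Hebp1 (0.0744) for Esr1, Slc7a2 (0.365) and the luminal keratin Krt19 (0.392) for Pgr, Mdfic (0.0616) and Zfp800 (0.0616) for Nr3c1, and Rasef (0.247) and Prr15l (0.258) for Foxa1. They also included Il17rc (0.102) for Gata3, Arhgap40 (0.426) and Tspan1 (0.482) for Cited1, Pof1b (0.252) and Tfcp2l1 (0.269) for Spdef, and Cobl (0.192) and Bnipl (0.201) for Epcam.

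Other steroid receptors and their coregulators were called at about the rate of all genes, 37.5% against 39.1%. Of 18 genes, 16 were tested, 3 were higher and 3 lower, with a median log2 fold change of 0.10 against -0.01 over all genes. With a block for the replicate number, 4 were higher and 5 lower. With 1 tumour left out, the median ranged from -0.01 (without VC tumour 4) to 0.16 (without VC tumour 1). Ncoa3, a coactivator of nuclear receptors, rose from 89.2 ± 14.4 to 143.7 ± 18.1 CPM (log2 fold change 0.69, SE 0.14, edgeR adjusted p = 0.00922). The orphan receptor Esrra rose from 22.1 ± 2.24 to 33.6 ± 4.99 CPM (0.60, SE 0.13, edgeR adjusted p = 0.0115), and the mineralocorticoid receptor Nr3c2 also rose (2.13, SE 0.66, edgeR adjusted p = 0.0340). The chaperone Hsp90ab1, which holds steroid receptors ready for hormone, fell from 2525 ± 108 to 1689 ± 259 CPM (-0.58, SE 0.13, edgeR adjusted p = 0.0126). The membrane oestrogen receptor Gper1 (-1.77, SE 0.43, edgeR adjusted p = 0.0158) and the coactivator Carm1 (-0.51, SE 0.14, edgeR adjusted p = 0.0233) fell as well. With 1 tumour left out, Ncoa3, Esrra, Hsp90ab1 and Gper1 passed in 8 of 8 fits. Nr3c2 did not pass without VC tumour 2, 3 or 4 or miR-21-KD tumour 1, 3 or 4 (edgeR adjusted p up to 0.0873), nor Carm1 without VC tumour 2 or 3 or miR-21-KD tumour 1, 3 or 4 (up to 0.0643). Oestrogen receptor beta (Esr2) had too few counts to be tested, with at most 9 counts in a tumour.

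Genes that respond to oestrogen and progesterone moved in both directions. Of 19 genes, 15 were tested, 5 were higher and 3 lower, with a median of 0.43, which was 0.16 without VC tumour 2 or miR-21-KD tumour 3, 0.26 without miR-21-KD tumour 1 and 0.28 without miR-21-KD tumour 4. The share called was 53.3%, against 39.1% of all genes. With no filter, 18 genes were tested, 3 were higher and 3 lower, and the median was 0.23. Stc2, a secreted glycoprotein, rose from 5.50 ± 2.35 to 50.5 ± 26.3 CPM (log2 fold change 3.19, SE 0.47, edgeR adjusted p = 0.00571), and the chemokine Cxcl12 from 92.1 ± 59.3 to 398 ± 232 CPM (2.11, SE 0.51, edgeR adjusted p = 0.0152). Wnt4, which carries the signal of progesterone to neighbouring cells, rose too (1.57, SE 0.52, edgeR adjusted p = 0.0433). The growth factor binding protein Igfbp4 fell from 2740.4 ± 418 to 1041 ± 378 CPM (-1.40, SE 0.26, edgeR adjusted p = 0.00795), and cyclin D1 (Ccnd1) fell as well (-1.58, SE 0.48, edgeR adjusted p = 0.0309). Areg, the ligand through which oestrogen drives duct growth, had a log2 fold change of 0.57 (SE 0.46) and did not pass (edgeR adjusted p = 0.346). Calca, Tff1, Tff3 and Agr2 were not tested, and Agr2 had no count in any tumour. Without 1 tumour the 8 calls became 5 (VC tumour 1), 3 (VC tumour 2 or 3, miR-21-KD tumour 3 or 4) or 4 (miR-21-KD tumour 1). Stc2, Cxcl12 and Igfbp4 passed in 8 of 8 such fits. Wnt4 did not pass with no filter nor without VC tumour 2, 3 or 4 or miR-21-KD tumour 1, 3 or 4 (edgeR adjusted p up to 0.118), nor Ccnd1 without VC tumour 2 or 3 or miR-21-KD tumour 3 or 4 (up to 0.0836).

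Among 14 genes that respond to glucocorticoids, all tested, 4 were higher and 1 lower, with a median of 0.55. The share called, 35.7%, was below that of all genes. Cebpd rose from 10.7 ± 3.18 to 29.0 ± 3.499 CPM (log2 fold change 1.43, SE 0.22, edgeR adjusted p = 0.00571). Tsc22d3, also called GILZ, a mediator of glucocorticoid action in leukocytes, rose from 91.2 ± 10.3 to 131 ± 23.9 CPM (0.52, SE 0.14, edgeR adjusted p = 0.0224), a call lost without VC tumour 3 or miR-21-KD tumour 1 or 4 (edgeR adjusted p up to 0.0647). Fkbp5, a cochaperone that restrains the glucocorticoid receptor and is induced by it, fell from 159 ± 17.7 to 94.1 ± 25.4 CPM (-0.76, SE 0.18, edgeR adjusted p = 0.0153). The 5 calls became 3 without VC tumour 2 or miR-21-KD tumour 1 or 3, and 2 without VC tumour 3 or miR-21-KD tumour 4.

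**Figure D3:**
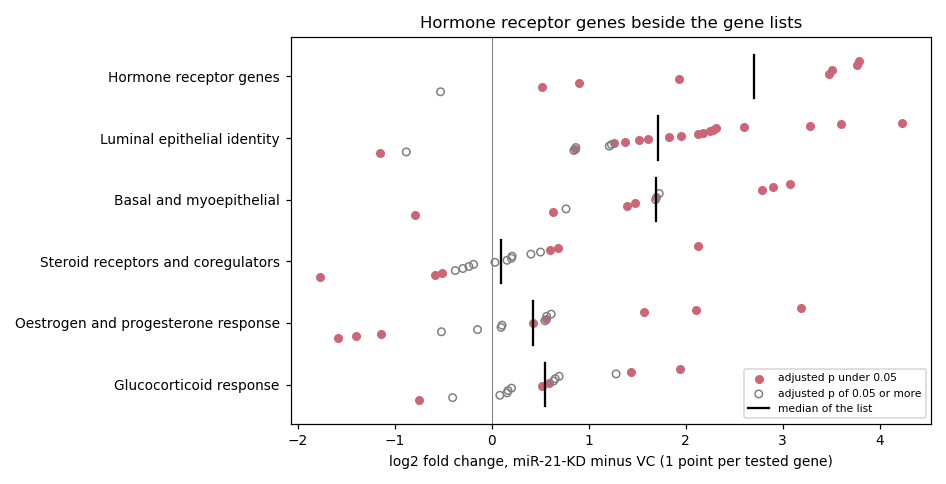
Log2 fold change, miR-21-KD minus VC (horizontal axis), of every tested gene of the hormone receptor group and of 5 related lists. Filled points passed the test at an adjusted p of 0.05, open points did not, and black lines are medians. The medians of the hormone receptor genes (2.70), the luminal list (1.72) and the basal list (1.69) lie well to the right of those of the receptor and coregulator list (0.10) and the hormone response lists (0.43 and 0.55).

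Luminal epithelial genes were mostly higher. Of 22 genes, all tested, 16 were higher and 1 lower, 77.3% called against 39.1% of all genes, with a median of 1.72. The prolactin receptor Prlr rose from 5.64 ± 4.77 to 106.8 ± 38.2 CPM (log2 fold change 4.23, SE 0.58, edgeR adjusted p = 0.00523). Krt19 rose from 21.6 ± 16.9 to 262 ± 142 CPM (3.60, SE 0.63, edgeR adjusted p = 0.00688), and Aldh1a3, a marker of luminal progenitors, from 6.84 ± 4.29 to 67.0 ± 34.9 CPM (3.29, SE 0.55, edgeR adjusted p = 0.00663). The paired luminal keratins went the other way. Krt18 fell from 1021 ± 244 to 459 ± 216 CPM (-1.15, SE 0.37, edgeR adjusted p = 0.0374), a call lost with no filter and without VC tumour 1, 2 or 3 or miR-21-KD tumour 3 or 4 (edgeR adjusted p up to 0.0941), and Krt8 went from 807 ± 173 to 438 ± 213 CPM (-0.88, SE 0.37), which did not pass (edgeR adjusted p = 0.0870) but did with the block for the replicate number (edgeR adjusted p = 0.0413). Since Krt8 and Krt18 were abundant, the summed level of the list overlapped, at 1375 to 2318 CPM for VC against 1257 to 2373 CPM for miR-21-KD tumours. The 17 calls became 8 without VC tumour 2 or 3 or miR-21-KD tumour 3 or 4, and 10 without miR-21-KD tumour 1.

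Basal and myoepithelial genes were mostly higher as well, with 72.7% called against 39.1% of all genes. Of 11 genes, all tested, 7 were higher and 1 lower, with a median of 1.69, and with the block for the replicate number 10 were higher and 1 lower. Krt14, a basal keratin, rose from 7.09 ± 6.05 to 60.3 ± 29.8 CPM (log2 fold change 3.08, SE 0.66, edgeR adjusted p = 0.0110). The contractile genes Myh11 (1.69, SE 0.37, edgeR adjusted p = 0.0115) and Acta2 (0.63, SE 0.12, edgeR adjusted p = 0.00849) rose too. Trp63, Mylk and Oxtr did not pass (edgeR adjusted p = 0.0878, 0.0551 and 0.0646). Vim, the mesenchymal intermediate filament, fell from 5879 ± 747 to 3394 ± 1024 CPM (-0.79, SE 0.23, edgeR adjusted p = 0.0248), a call lost without VC tumour 1, 2 or 3 or miR-21-KD tumour 4 (edgeR adjusted p up to 0.0715). The 8 calls became 5 without VC tumour 2 or 3 or miR-21-KD tumour 4.

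**Figure D4:**
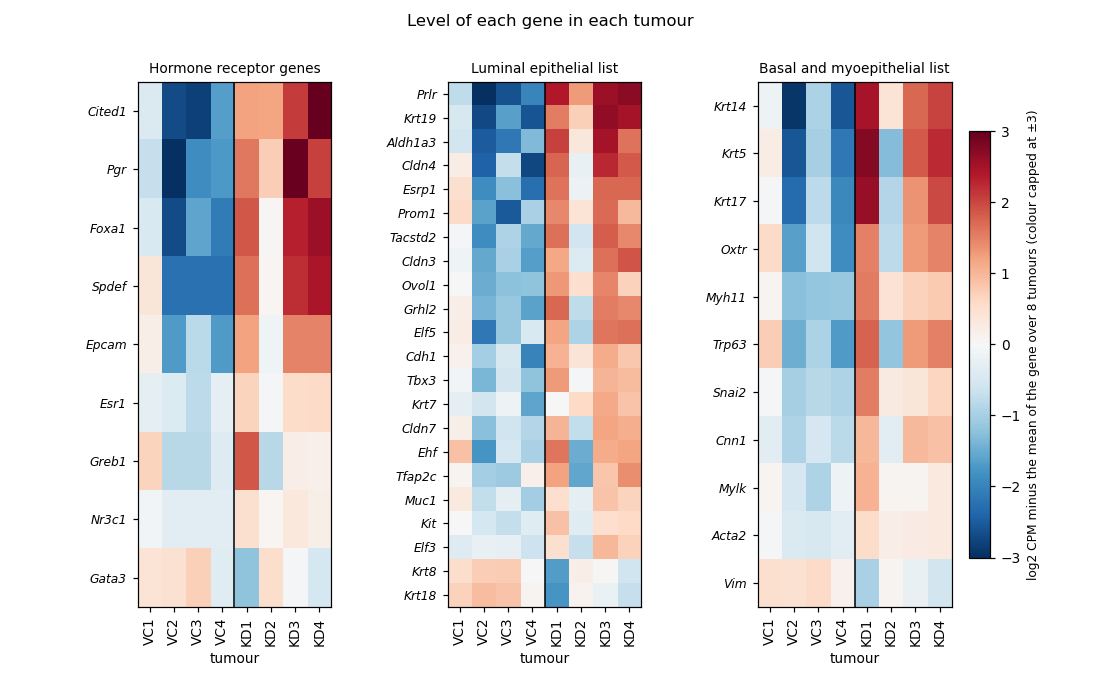
Level of the hormone receptor genes, the luminal list and the basal and myoepithelial list in each tumour, as log2 CPM minus the mean of the gene over 8 tumours (colour, capped at ±3). Columns are VC tumours 1 to 4 (VC1 to VC4) and miR-21-KD tumours 1 to 4 (KD1 to KD4), and rows are sorted by the difference between group means. In each panel most rows are higher in KD1, KD3 and KD4, with KD2 nearer to VC1, and Gata3, Krt8, Krt18 and Vim run the other way.

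Markers of adipocytes, fibroblasts, macrophages and T and type 2 lymphoid cells were mostly called higher in miR-21-KD tumours. Those of milk secretory epithelium, endothelial cells, B cells and skeletal muscle were not. All 8 adipocyte markers were higher in miR-21-KD tumours (median log2 fold change 2.64), with summed levels of 123 to 445 CPM for VC against 645 to 1816 CPM for miR-21-KD tumours, and Fabp4 rose from 136 ± 80.4 to 502 ± 184 CPM (edgeR adjusted p = 0.0124). Of 9 fibroblast markers 7 were higher (median 1.42), with sums of 3203 to 8291 and 10761 to 23779 CPM. These sums did not overlap between groups, and VC tumour 1 was the highest VC tumour and miR-21-KD tumour 2 the lowest of its group for both. The collagen gene Col3a1 rose from 2743 ± 1192 to 7321 ± 2859 CPM (edgeR adjusted p = 0.0198). Pdgfra and Pdgfrb did not pass, and Pdgfra had a log2 CPM of 7.54 to 7.95 in VC and 7.15 to 8.01 in miR-21-KD tumours. All 8 macrophage markers were higher (median 1.07; sums 3070 to 4914 and 6903 to 10991 CPM), as were 10 of 13 T and type 2 lymphoid markers (median 1.44; sums 97.0 to 256 and 336 to 602 CPM). The most counted of these, Mrc1 (1604 ± 522 to 3800.3 ± 852 CPM, edgeR adjusted p = 0.00928) and Il1rl1 (46.4 ± 19.1 to 85.4 ± 14.3 CPM, edgeR adjusted p = 0.0297), both rose. Of 7 tested milk genes 1 was higher and 1 lower, and sums of 36.4 to 262 and 77.7 to 313 CPM overlapped, whereas with the block for the replicate number 3 were higher and 0 lower. The casein Csn3 rose from 31.3 ± 18.3 to 97.5 ± 63.5 CPM (edgeR adjusted p = 0.0489). Of 6 endothelial markers 2 were higher, with overlapping sums of 363 to 651 and 557 to 798 CPM, and Pecam1 was at 297 ± 69.1 and 385 ± 55.9 CPM and did not pass (edgeR adjusted p = 0.124). Among 5 tested B cell markers 0 passed (edgeR; 0 also at an unadjusted p of 0.05, and 1, Cd22, with the block for the replicate number). Their sum was 197 CPM in VC tumour 4 against 16.5 to 20.4 CPM in the other VC tumours, and 119.8 CPM in miR-21-KD tumour 4 against 40.0 to 75.1 CPM in the other miR-21-KD tumours. Of 2 tested muscle markers 1, Myh1, was lower (4.98 ± 1.77 to 0.891 ± 0.997 CPM, edgeR adjusted p = 0.0209). Of all genes tested, 39.1% passed, against 100% of the adipocyte and macrophage markers, 77.8% of the fibroblast, 76.9% of the lymphoid, 33.3% of the endothelial and 28.6% of the milk markers tested. With 1 tumour left out, all 8 adipocyte markers and Mrc1 passed in 8 of 8 fits and Col3a1 in 7 (edgeR adjusted p = 0.0601 without VC tumour 3). Without VC tumour 3, calls were also lost for the fibroblast markers Dcn, Lum and Fap and the macrophage markers Adgre1, C1qa, C1qb and C1qc. The same fit lost the lymphoid markers Cd3e, Cd3d, Cd3g, Il4 and Ccr4, so the shares called of these lists were lower there. Il1rl1 passed only without VC tumour 1 or miR-21-KD tumour 2 (edgeR adjusted p otherwise up to 0.0750), Csn3 only without VC tumour 4 or miR-21-KD tumour 2 (up to 0.131), and Myh1 did not pass without VC tumour 3 or miR-21-KD tumour 1 or 3 (up to 0.0592). The part of these cell types in the levels of Esr1, Pgr, Nr3c1, Gata3 and the other genes was not tested.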

How the data were processed

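RNA sequencing was analysed for 8 whole tumours, 4 per group. The authors deposited a table of raw read counts, with Entrez identifiers in rows, tumours in columns and no normalization. The submitters' processing notes name Subread, featureCounts, edgeR, limma and mm10. Versions, gene annotation and strand setting are not given in the sources used here. Symbols came from RefSeq (GRCm38.p6) and matched 25275 of 27179 identifiers, and exon lengths and 3′ UTRs came from GENCODE M21 (GRCm38).

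Tests used edgeR 4.0.16 under R 4.3.3. The function filterByExpr, set to a minimum count of 10 and a minimum total of 15, retained 14382 genes that hold 99.9% of counts. Libraries were scaled with TMM and compared with the robust quasi-likelihood test, and p-values were adjusted by Benjamini and Hochberg with a threshold of 0.05. Standard errors were derived from the estimate and the F statistic. Log2 CPM used a prior count of 2. The fit was tested on simulated data. Tumours within each group differed by more than counting error in every pair (chi-square per degree of freedom 10.3 to 57.8).

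The members and lists were chosen with earlier results of these data known. The genes named are the members, the 3 of smallest p in each pathway list, the marker of highest mean CPM in each marker list and the 2 most like each member, of which 1 is not reported here. Nr3c2, Gper1, Carm1, Wnt4, Ccnd1, Areg, Krt8, Krt18, Vim, Esr2, Calca, Tff1, Tff3 and Agr2 were named after their values were seen. So were Trp63, Mylk, Oxtr, Pdgfra, Pdgfrb, Dcn, Lum, Fap, Adgre1, C1qa, C1qb, C1qc, Cd3e, Cd3d, Cd3g, Il4 and Ccr4. Alternatives were DESeq2 1.42.0, limma-voom (limma 3.58.1), scaling by library size or upper quartile, no filter, at least 10 counts in every tumour, a block for the replicate number and each tumour left out.

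The labels number the tumours of each group from 1 to 4. They do not state that tumours of the same number belong together. After removal of group means, correlations between tumours of the same number were 0.272, 0.421, 0.175 and 0.376. The mean for other combinations was -0.105. Removing group means forces that mean below 0 when same-number correlations are positive, so the contrast is not separate evidence of pairing. The numbers were used as pairs in the block, the differences by replicate number and the sign-flip permutation. Whether the tumours were paired was not tested. The values reported use no block.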

Additional observations from a re-analysis of the deposited data

Results flagged for a closer look

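In the VC group 1 tumour lay far from the other 3 for 2 genes, out of 18 groups of 4 values examined, where chance gives about 1 in 20 for continuous values. Nr3c1 had 102 CPM in VC tumour 1, against 85.6 to 87.5 CPM in the others. Spdef had 0.810 CPM in VC tumour 1 and 0 in the others, so the gap there follows from the zeros and that rate does not apply.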

How the results depend on the processing

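The 7 calls among the luminal hormone receptor genes were made with DESeq2, limma-voom, both other scalings, no filter and the block for the replicate number, and 5 of the 6 genes left were called with at least 10 counts in every tumour, a filter that removes Pgr and Spdef. With 1 tumour left out, 5 to 7 of the genes were called, and calls were lost for Spdef and Epcam. The block for the replicate number gave 6485 calls over all genes, against 5626 without it, and 7 among the luminal hormone receptor genes. With 1 tumour left out, calls over all genes ranged from 2936 (without VC tumour 3) to 6840 (without miR-21-KD tumour 2). In the same fits the calls ranged from 3 to 9 for oestrogen and progesterone response, from 2 to 7 for glucocorticoid response, from 8 to 22 for luminal epithelial identity, from 5 to 11 for basal and myoepithelial genes and from 4 to 8 for steroid receptors and coregulators. These fits rest on fewer tumours, and the cause was not tested further. No fold change of the 8 tested genes changed sign under any of the alternatives run. The median of the steroid receptor and coregulator list, 0.10, was -0.01 without VC tumour 4. Greb1 and Spdef had at most 3 counts in 3 of 4 VC tumours.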
